A study of Mus musculus with 6 samples.

Results

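The genes that flank Nlrp3 on mouse chromosome 11 were taken as every entry of the deposited gene tables with a usable status whose mm9 position overlapped a window of 10.02 Mb, about 5 Mb to either side of Nlrp3 (chromosome 11, 59356188 to 59380458). Of the 172 entries in that window, Nlrp3 itself, 3 histone genes and 2 genes of mitochondrial ribosomal proteins were left out by their symbols. This left 166 flanking genes of 23415 entries in all, 85 at smaller and 81 at larger coordinates than Nlrp3. The choice rests on position and symbol. At the edges of the window, Rapgef6 (chromosome 11, 54336347 to 54512788) was the first gene inside, with FPKM of 38.1 in naive NLRP3KO and 34.7 in naive WT, and Hs3st3a1 (chromosome 11, 64248834 to 64336337) the last, with 0.214 in naive NLRP3KO and 0.175 in naive WT. The nearest genes outside were Fnip1, with 3.84 in naive NLRP3KO and 4.01 in naive WT, and Elac2, with 6.92 in naive NLRP3KO and 3.78 in naive WT.

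RNA of mouse CD4 T cells was sequenced from animals of strain C57/Bl6j aged 7 weeks. The NLRP3KO groups came from animals lacking NLRP3, a sensor that assembles an inflammasome, and the WT groups from wild-type animals. Within each genotype there were naive cells from spleen and nodes, cells after 3 days of culture towards T helper type 2 (Th2) cells, and cells after 6 days of it, with 1 library for each of the 6 groups. The culture used plates coated with CD3 and CD28 antibodies, 10 ng/ml of IL-4 and an antibody that blocks interferon gamma. The Th2 libraries were made from total RNA depleted of ribosomal RNA and the naive libraries from purified mRNA. How the Nlrp3 allele was made, in which strain, how often it was backcrossed and how many animals gave each library is not given in the sources used here.

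A targeted allele that was made in cells of another strain and then crossed into C57BL/6 carries a segment of the donor strain's chromosome around the targeted gene. Genes in that segment can differ between a mutant and its wild-type controls whatever the targeted gene does, which is why flanking genes are examined as a group. A difference carried by such a segment is usually looked for at every stage and near the targeted gene. The segment around Nlrp3 holds genes for zinc finger proteins, immunity-related GTPases that interferon induces, signalling adaptors, mitochondrial enzymes and a large cluster of olfactory receptors.

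Nlrp3 was listed at 0 in the NLRP3KO libraries of all 3 stages and had FPKM (fragments scaled to transcript length and to the library's mapped fragments) of 0.0569 in naive WT and 0 in both Th2 WT libraries, so its loss could not be checked. Fragments on all genes, estimated from the confidence bounds deposited with each FPKM, numbered 1305320 in NLRP3KO and 1523290 in WT at the naive stage. At day 3 they numbered 23020 in NLRP3KO and 26795 in WT, and at day 6 4952 in NLRP3KO and 28022 in WT. On the 72 flanking genes with such an estimate these came to 11872 in NLRP3KO and 12951 in WT at the naive stage. At day 3 they came to 165 in NLRP3KO and 179 in WT, and at day 6 to 40.1 in NLRP3KO and 228 in WT. CD4 T cell markers were above 0 in every library, although Cd3d was listed at 0 in NLRP3KO at day 3, and Cd3g and Lck in NLRP3KO at day 6. Of 4 Th2 markers, Gata3 was above 0 in all 6 libraries, Il4 had 3.77 FPKM in WT at day 3 and 0 in the other 5 libraries, Il5 was above 0 only in naive NLRP3KO (0.237), and Il13 was listed at 0 throughout. The summed FPKM of 4 B cell markers was 33.0 in naive NLRP3KO and 74.2 in naive WT. With 1 library per group the differences below are between libraries, have no replicate check and carry no p-value, except in the fit over stages. In such bulk libraries fewer cells of a type and less RNA per cell cannot be told apart.

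Many flanking genes were listed at 0 in these libraries. Of the 166 genes, 52 were listed at 0 in all 6 libraries, among them 20 of 24 olfactory receptors, and 114 were above 0 in at least 1 library. Naive cells showed 103 genes above 0 in NLRP3KO and 95 in WT. At day 3 the numbers were 51 in NLRP3KO and 57 in WT, and at day 6 they were 28 in NLRP3KO and 53 in WT. Over all 23415 entries, 12570 were above 0 in naive NLRP3KO and 12875 in naive WT. At day 3 these were 6369 in NLRP3KO and 6746 in WT, and at day 6 2777 in NLRP3KO and 6881 in WT. Only 17 flanking genes were above 0 in all 6 libraries, as were 1796 of all entries. A gene was kept at a stage when its FPKM reached 1 in at least 1 of the 2 libraries, which held for 83 genes at the naive stage, 51 at day 3 and 51 at day 6. Differences are given as log2 of scaled FPKM plus 1, NLRP3KO minus WT, and a gene was counted as apart when this reached 2-fold. FPKM in the text are as deposited.

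**Figure D1:**
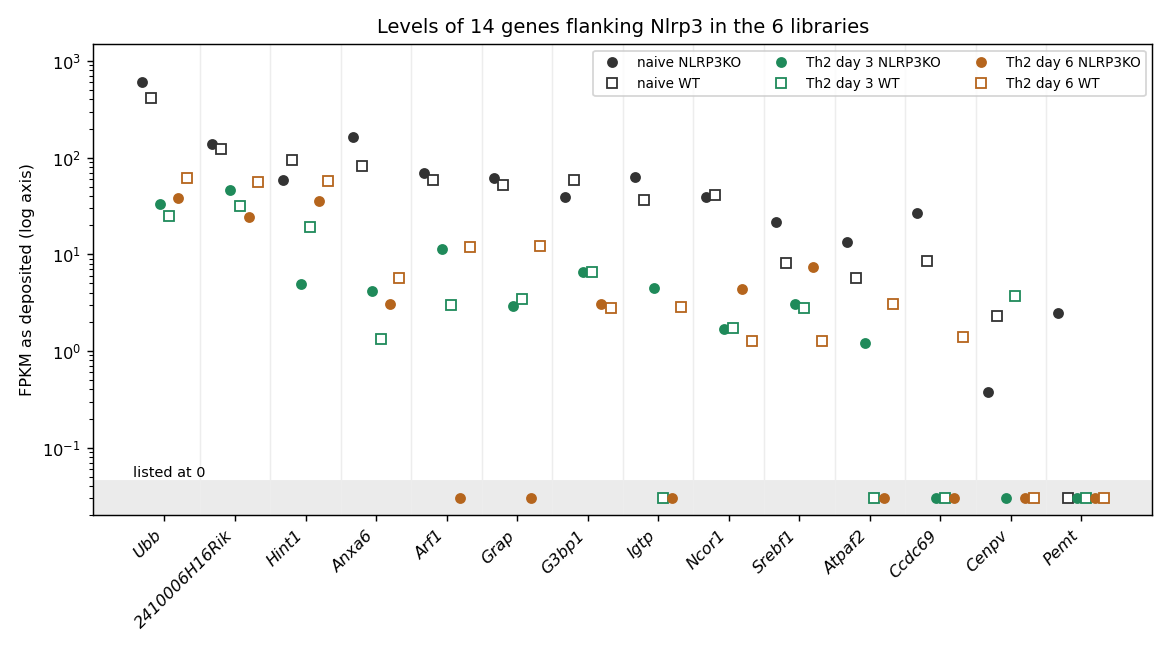
FPKM as deposited (log axis) of 14 flanking genes in the 6 libraries, with filled circles for NLRP3KO and open squares for WT, and values listed at 0 drawn in the grey band. Ubb had the highest naive values, 609 in NLRP3KO and 418 in WT. As deposited, most Th2 values lay well below the naive values of the same gene. Naive and Th2 libraries differ in how their RNA was selected, so this gap cannot be read as a fall during culture. Scaling divided FPKM by 4.08 and 3.05 in naive NLRP3KO and WT, but by 0.496 to 0.617 in the Th2 libraries. The ribosomal RNA entry Rn45s had 7819 and 10783 FPKM in naive NLRP3KO and WT, against 53218 to 67266 in the Th2 libraries.

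On the log2(scaled FPKM + 1) scale, few flanking genes were 2-fold apart in naive cells. The median absolute difference of the flanking genes was 0.24, against 0.20 over all entries kept. Their median log2 difference was 0.02, against 0.01 over all 9985 entries kept. At least 2-fold apart was 1 of the 83 kept, or 1.20%, against 2.53% of all entries kept. That gene, Hint1, was lower in NLRP3KO, and none was at least 2-fold higher in NLRP3KO (0.21% of all entries were higher and 2.32% lower). Hint1, which encodes a nucleotide hydrolase of the histidine triad family, had 59.3 FPKM in naive NLRP3KO and 94.6 in naive WT, a log2 difference of -1.05. Both of its values lay outside the confidence bounds deposited with them, 32.9 to 58.6 in NLRP3KO and 57.3 to 85.5 in WT, as also held for Atox1, Ubb and 2410006H16Rik in naive cells. By bounds that did not overlap and at least 2-fold, Hint1 was again the 1 gene counted, where 1.87% of all entries were. Hint1 is short, at 636 bases for its longest transcript. Among all kept entries with transcripts under 1000 bases the naive median was -0.48 and 19.7% were at least 2-fold lower in NLRP3KO (n = 482), and the part of length in the value of Hint1 was not tested. Without entries that lay outside their own bounds, 0 of 79 flanking genes were 2-fold apart in naive cells, against 1.47% of all entries. The direction of the few calls depended on the scaling: 5 were higher and 1 lower in NLRP3KO without scaling, 2 higher and 3 lower with the median ratio over the 2 naive libraries, 1 higher and 1 lower with upper quartile scaling, and 1 higher and 0 lower, so without Hint1, when scaled by fragments on genes. With a pseudocount of 0.1 there were 4 each way.

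Scaling divided the naive FPKM by 4.08 in NLRP3KO and 3.05 in WT, so the pseudocount shrinks the naive differences, and ratios without it were taken for the 61 flanking genes with at least 20 estimated fragments in both naive libraries. Ratios of scaled FPKM, NLRP3KO over WT, ran from 0.468 to 2.29 with a median of 1.01. Ccdc69 and Srebf1 had ratios of at least 2, and Hint1 and G3bp1 of at most 0.5. These 4 genes made up 6.56%, against 3.15% of the 7172 entries of that depth. At a wider limit of 1.5-fold, 10 flanking genes, or 16.4%, were apart, against 17.2% of the same entries. Among the 27 flanking genes with at least 100 fragments in both, 3 were 2-fold apart (11.1%, against 2.26% of 2962 entries) and 5 were 1.5-fold apart (18.5%, against 11.3%).

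**Figure D2:**
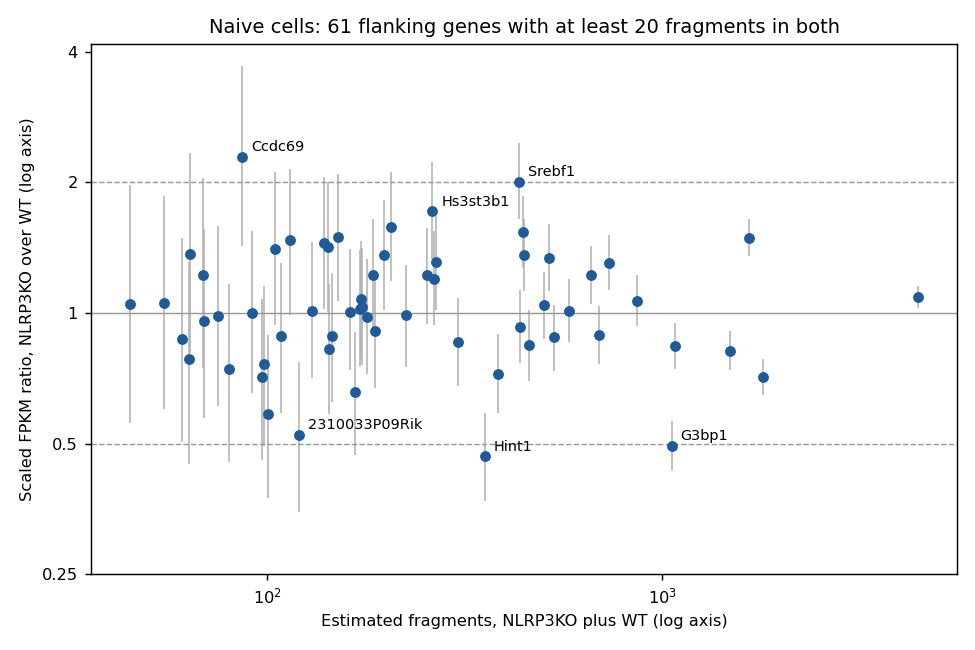
Ratio of scaled FPKM in naive cells, NLRP3KO over WT (log axis), against the estimated fragments of both libraries (log axis), for the 61 flanking genes with at least 20 fragments in both. Bars are exact 95% intervals of counting error, and the ratios of Ccdc69 and Srebf1 lie above 2 while those of Hint1 and G3bp1 lie below 0.5.

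Ccdc69, a coiled-coil protein, had 26.5 FPKM in naive NLRP3KO and 8.62 in naive WT, a ratio after scaling of 2.29 (95% interval 1.42 to 3.70, exact Clopper-Pearson, counting error only). It was listed at 0 in both libraries of day 3, and at day 6 it had 0 in NLRP3KO and 1.39 in WT. As listed, naive NLRP3KO was the highest of the 6 libraries for Ccdc69. In the day 6 NLRP3KO library, however, 3 fragments would have given 32.6 FPKM, above the naive value, so this order cannot be read. Srebf1, a transcription factor of fatty acid synthesis, had 21.7 in naive NLRP3KO and 8.06 in naive WT, a ratio of 2.01 (1.65 to 2.47). At day 3 Srebf1 had 3.04 in NLRP3KO and 2.79 in WT, and at day 6 it had 7.44 in NLRP3KO and 1.28 in WT. Its value was higher in NLRP3KO at every stage as deposited, but after scaling its log2 difference was 0.79 in naive cells, -0.05 at day 3 and 1.97 at day 6, the last on 4.01 and 3.00 estimated fragments in NLRP3KO and WT. G3bp1, an RNA-binding protein of stress granules, had 39.3 in naive NLRP3KO and 59.2 in naive WT, a ratio of 0.495 (0.433 to 0.564). At day 3 it had 6.63 in NLRP3KO and 6.52 in WT, a ratio of 0.897 (0.285 to 2.23), and at day 6 it had 3.04 in NLRP3KO and 2.79 in WT, a ratio of 0.965 (0.0195 to 9.72). Both Th2 intervals contain the naive ratio.

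Confidence bounds, scaled by the same factors, did not overlap between the naive libraries for 17 of the 83 flanking genes (20.5%), 10 higher and 7 lower in NLRP3KO, against 15.7% of all entries kept. Neighbouring genes about 4.5 Mb from Nlrp3 were among the 10. Tnip1, which binds the NF-kappaB inhibitor Tnfaip3, had 34.1 in naive NLRP3KO and 16.6 in naive WT. Its neighbour Anxa6, a phospholipid-binding annexin, had 165 in naive NLRP3KO and 82.5 in naive WT. Ccdc69 lies next to them, and the 3 genes had naive log2 differences of 0.54, 0.56 and 0.97. Atox1, a copper chaperone about 4.08 Mb from Nlrp3, went the other way with 47.2 in naive NLRP3KO and 67.5 in naive WT, but these values lay outside their own bounds. Atpaf2, an assembly factor of ATP synthase, had 13.4 in naive NLRP3KO and 5.71 in naive WT, and its scaled bounds overlapped. Hs3st3b1, a heparan sulfate sulfotransferase, had 8.36 in naive NLRP3KO and 3.64 in naive WT.

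Beside Hint1, G3bp1 and 2310033P09Rik, the genes lower in NLRP3KO with naive bounds apart were Ncor1, Rapgef6, Cenpv and Fam114a2. Ncor1, a corepressor of nuclear receptors, had 39.2 in naive NLRP3KO and 41.0 in naive WT, with a ratio of 0.713 (0.648 to 0.785). Rapgef6, an exchange factor for Rap GTPases, had a ratio of 0.818 (0.737 to 0.908), but its deposited FPKM was the higher in NLRP3KO, so its direction turns with the scaling. The centromere protein gene Cenpv had 0.376 in naive NLRP3KO and 2.29 in naive WT, on 1.21 and 10.8 estimated fragments. At day 3 Cenpv was listed at 0 in NLRP3KO and had 3.73 in WT. At day 6 it was listed at 0 in both libraries. At the depth of the Th2 libraries a value of 0 does not by itself show a lower level. On the higher side, Pemt, which methylates phosphatidylethanolamine, had 2.46 in naive NLRP3KO but 0 in naive WT and in all Th2 libraries. It was the only flanking gene kept in naive cells that was listed at 0 in 1 of the naive libraries. Galnt10, which starts O-glycosylation, the polarity gene Llgl1 and the actin-binding gene Flii were higher in NLRP3KO, with ratios of 1.36, 1.58 and 1.34. Fam114a2 had a ratio of 0.725. The naive bounds overlapped for Zfp672, a zinc finger gene with 5.41 in naive NLRP3KO and 9.53 in naive WT, and for Prpsap2, which binds phosphoribosyl pyrophosphate synthetase, with 6.06 in naive NLRP3KO and 8.23 in naive WT. They also overlapped for Aldh3a2, a fatty aldehyde dehydrogenase, with 9.80 in naive NLRP3KO and 6.81 in naive WT.

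The 18 detected genes nearest to Nlrp3, within 0.5 Mb, gave no common direction in naive cells. Zkscan17, a zinc finger gene 0.036 Mb away, had 6.19 FPKM in naive NLRP3KO and 3.19 in naive WT, with a ratio of 1.45 (1.02 to 2.05). Its scaled bounds overlapped. The zinc finger gene Zfp867 had 1.79 in naive NLRP3KO and 0.473 in naive WT, with a ratio of 2.82 (1.20 to 8.38) on 19.0 and 7.38 fragments. On the other side of Nlrp3, Mprip, a partner of myosin phosphatase, had 5.44 in naive NLRP3KO and 3.10 in naive WT. Folliculin, encoded by Flcn, had 10.9 in naive NLRP3KO and 7.93 in naive WT, a ratio of 1.03 (0.759 to 1.41). Snap47, a SNARE protein, had 11.6 in naive NLRP3KO and 6.98 in naive WT, and Jmjd4, a JmjC hydroxylase, had 3.38 in naive NLRP3KO and 2.61 in naive WT. After scaling their log2 differences were 0.23 and -0.02. Lower after scaling were 2310033P09Rik, with 15.2 in naive NLRP3KO and 21.6 in naive WT, and Cops3, a subunit of the COP9 signalosome, with 14.5 in naive NLRP3KO and 16.4 in naive WT. Their ratios were 0.524 (0.347 to 0.773) and 0.658 (0.469 to 0.904), and the scaled bounds of Cops3 overlapped. Arf1, a GTPase of vesicle formation at the Golgi, had 68.8 in naive NLRP3KO and 58.4 in naive WT, a ratio of 0.879 (0.736 to 1.04). The guanylate kinase gene Guk1 had 13.2 in naive NLRP3KO and 15.0 in naive WT, a log2 difference of -0.48. The mitochondrial nucleotidase gene Nt5m, the Mediator subunit gene Med9, A230051G13Rik, 2610507I01Rik and 4933439C10Rik lay between 1.25 and 4.83 FPKM in both naive libraries, with log2 differences between -0.25 and 0.06. Pld6, a mitochondrial phospholipase, stayed under 0.3 FPKM in every library.

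By distance from Nlrp3, the median absolute log2 difference in naive cells was 0.23 among the 28 kept genes within 1 Mb and 0.24 among the 55 beyond it. Between 4 and 5 Mb on the smaller-coordinate side, where Hint1, Tnip1, Anxa6, Ccdc69, Atox1 and G3bp1 lie, it was 0.54 over 11 genes. Fragments pooled over the 72 flanking genes with an estimate gave a share of the library in NLRP3KO 1.07 times that in WT (1.04 to 1.10, counting error only). This ratio was exceeded by 57 of 171 other windows of the same length. Genes without an estimate, such as Atox1, were left out. Without Ubb and 2410006H16Rik, whose naive values lay outside their own bounds, the naive ratio was 1.06 (1.03 to 1.09). In naive cells the pooled ratio was 1.12 (1.08 to 1.17) over 47 genes within 2.5 Mb and 1.15 (1.08 to 1.23) over 22 genes within 1 Mb. Shorter windows elsewhere were not tested, and the naive ratios of the full-length windows ran from 0.729 to 1.22. At day 3 the ratio was 1.15 (0.854 to 1.52) within 2.5 Mb and 0.911 (0.594 to 1.41) within 1 Mb. At day 6 it was 0.897 (0.517 to 1.45) within 2.5 Mb and 1.02 (0.424 to 2.01) within 1 Mb. Each Th2 interval contains the naive ratio of the same distance and includes no change.

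**Figure D3:**
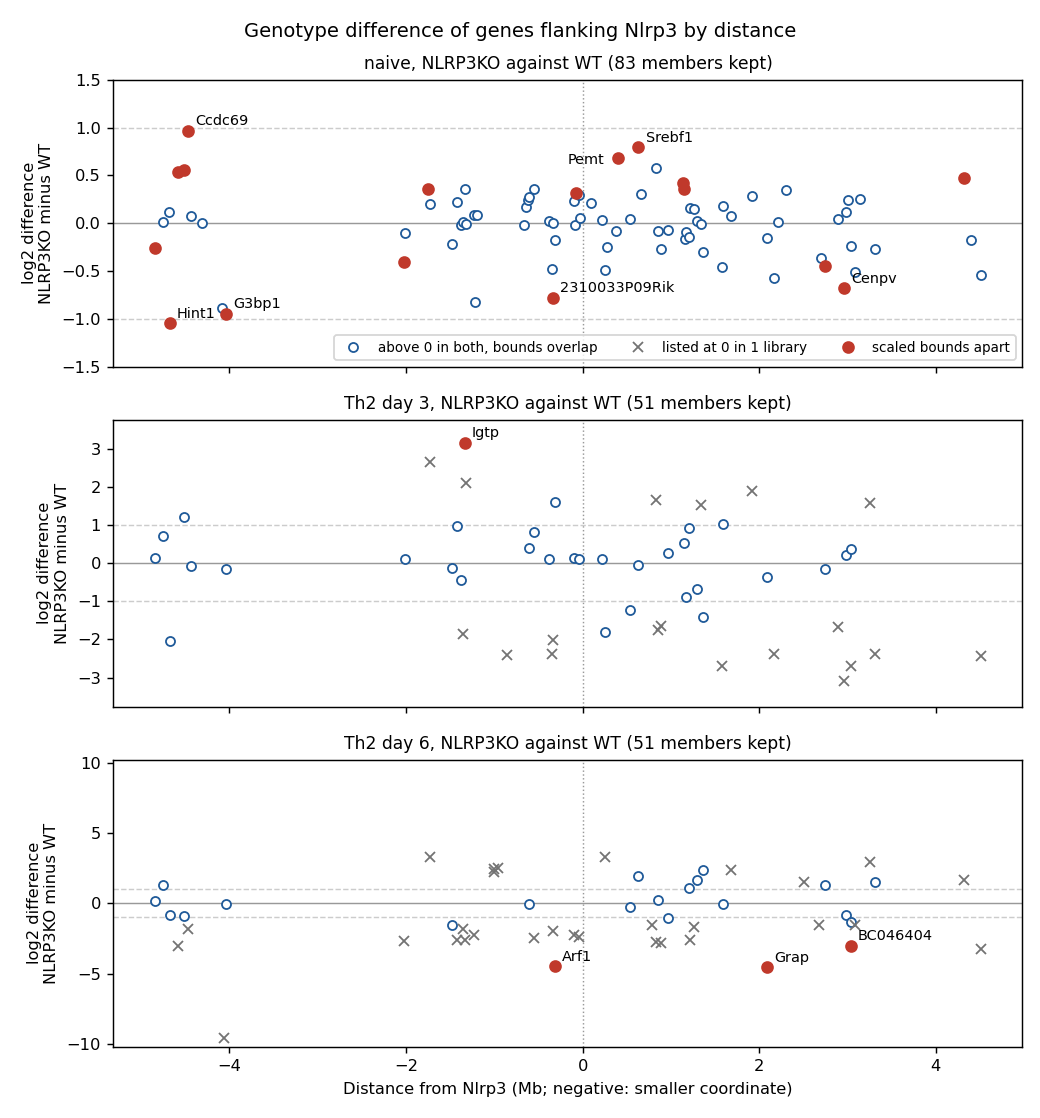
Log2 difference of each kept flanking gene, NLRP3KO minus WT, against its distance from Nlrp3 in Mb, for 83 genes in naive cells, 51 at day 3 and 51 at day 6. Filled red points have scaled bounds that do not overlap, crosses are listed at 0 in 1 library, and dashed lines mark 2-fold.

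The window at Nlrp3 was set beside every other window of the same 10.02 Mb that held at least 20 kept entries. In naive cells its median difference was exceeded by 82 of 171 other windows, and its share of genes at least 2-fold apart by 97 of 171, of which 6 were among the 9 others on chromosome 11. Its median absolute difference, 0.24, was exceeded by 21 of 171 other windows, of which 1 was among the 9 others on chromosome 11. The median over the 171 other windows was 0.19. In the Th2 stages many genes were kept through 1 library and listed at 0 in the other, and such genes had to differ, so the shares of day 3 and day 6 are shown without reading a rank from them.

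**Figure D4:**
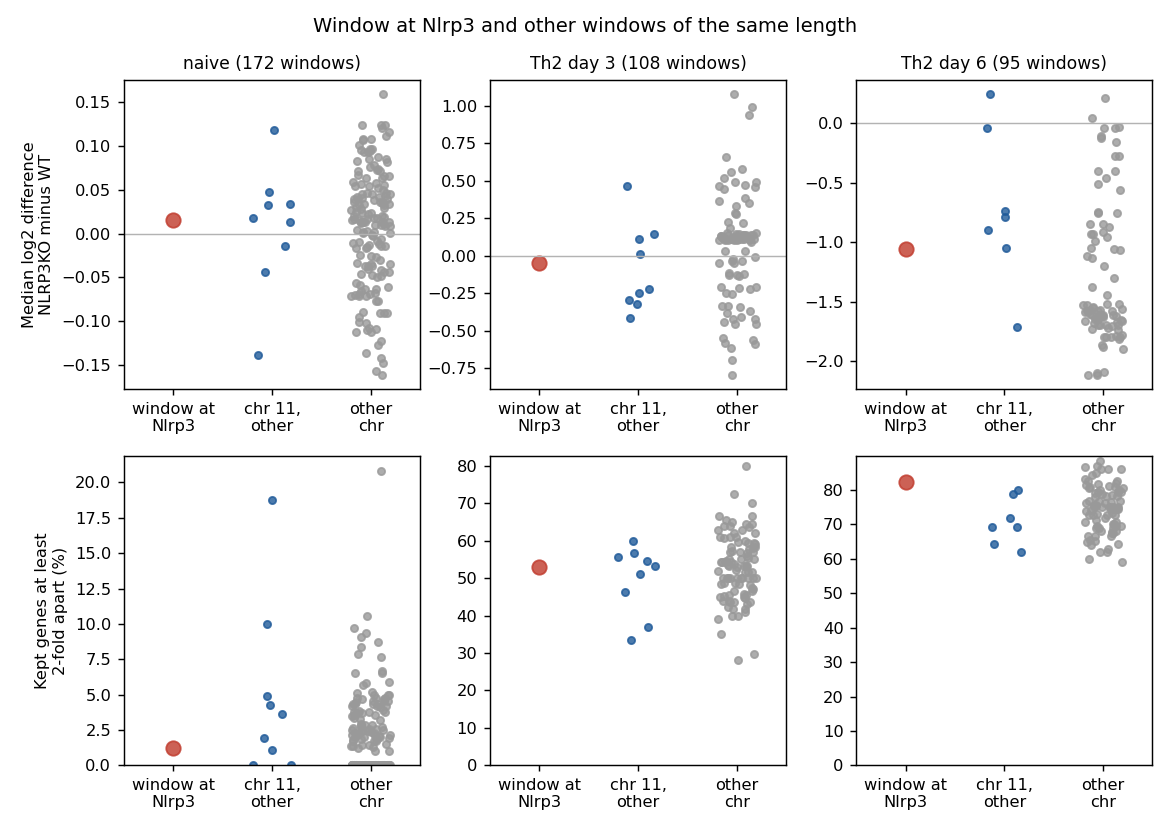
Median log2 difference (top) and percent of kept genes at least 2-fold apart (bottom) for the window at Nlrp3 (red), other windows of chromosome 11 (blue) and windows of other chromosomes (grey). Among 172 naive, 108 day 3 and 95 day 6 windows, the window at Nlrp3 lies within the spread of all others in every panel. Its day 6 share (82.4%) is above those of the 7 others shown on chromosome 11, but is mostly set by values listed at 0.

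At day 3, 10 of 51 kept flanking genes reached 2-fold with the higher value in NLRP3KO and 17 with the lower. The 27 genes made up 52.9%, against 52.6% of all 5749 entries kept, with 25.4% of all entries higher and 27.2% lower. Their median difference was -0.05, against 0.11 over all entries. Of the 51, 13 were listed at 0 in NLRP3KO and 7 in WT, and a gene kept through the other library alone had to differ, so these counts are a description. Among the 31 above 0 in both, 3 were higher and 4 lower (22.6%, against 27.8% of all entries). With the median ratio over the 2 libraries, 6 of the 51 were higher and 17 lower. No flanking gene was at least 2-fold apart while above 0 in both libraries with bounds that did not overlap, where 1.37% of all entries were. Among the 9 flanking genes with at least 5 fragments in both, the ratios ran from 0.897 to 1.35 and none reached 2-fold, while 17.1% of the 696 entries of that depth did.

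The genes with the most fragments at day 3 had ratios near 1 with wide intervals, which do not exclude 2-fold differences for those named here. The polyubiquitin gene Ubb had 33.0 FPKM in NLRP3KO and 24.9 in WT, a ratio after scaling of 1.17 (0.550 to 2.28). The noncoding entry 2410006H16Rik had 46.6 in NLRP3KO and 31.5 in WT, a ratio of 1.30 (0.455 to 3.47). Larp1, which binds mRNAs of the translation machinery, had 4.23 in NLRP3KO and 4.09 in WT, a ratio of 0.911 (0.403 to 2.02). Rnf187, a ubiquitin ligase, had 7.04 in NLRP3KO and 4.62 in WT, a ratio of 1.35 (0.342 to 5.57). Hint1 had 4.88 in NLRP3KO and 19.3 in WT, on 1.34 and 6.70 fragments, a log2 difference of -2.04. The bounds overlapped and the interval of its ratio, 0.00355 to 1.25, includes no change. Arf1 had 11.5 in NLRP3KO and 3.00 in WT, a log2 difference of 1.60 on 6.01 and 2.00 fragments, and the bounds overlapped. Cops3 had 1.48 in NLRP3KO and 5.83 in WT, on 0.975 and 4.88 fragments.

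The 3 immunity-related GTPases among the flanking genes lie within 1.4 Mb of Nlrp3 at smaller coordinates and encode proteins that interferon induces and that act against intracellular microbes. Igtp had 63.2 FPKM in naive NLRP3KO and 36.1 in naive WT, a ratio after scaling of 1.31 (1.13 to 1.52). Its scaled naive bounds overlapped. At day 3 Igtp had 4.48 in NLRP3KO, with bounds of 1.04 to 8.32, against 0 in WT with bounds of 0. The counting interval of that ratio starts at 0.740 and so includes no change. At day 6 Igtp was listed at 0 in NLRP3KO, where 3 fragments would have given 11.4, and had 2.83 in WT, so no order can be read. Against a value of 0 with bounds of 0, any lower bound above 0 stands apart, which held at day 3 for Igtp alone among the kept flanking genes, while bounds stood apart for 4.52% of all entries. Its neighbour Irgm2 had 11.7 in naive NLRP3KO and 8.85 in naive WT, a ratio of 0.988 (0.751 to 1.29). Irgm2 had 1.87 in NLRP3KO at day 3 and was listed at 0 in the other Th2 libraries. Gm12250 had 8.54 in naive NLRP3KO and 6.32 in naive WT, a ratio of 1.01 (0.707 to 1.46), and was listed at 0 in NLRP3KO at days 3 and 6, against 1.30 and 1.39 in WT. The Th2 values rest on fewer than 5 fragments each. These genes belong to a family of similar copies, and how reads shared between copies were counted is not given in the sources used here.

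Promoters of these 3 genes are shown because they are the only named flanking genes whose promoter held a match to both motifs searched, GAAANNGAAA, as in the response element of interferon-regulated factors, and TTCNNNGAA, as in STAT binding sites. The sequences are from RefSeq on GRCm38.p6, plus strand, from 250 bases before to 50 bases after the start, with matches on either strand in capitals, and lie at chr11:58199306-58199605 for Igtp, chr11:58214727-58215026 for Irgm2 and chr11:58183593-58183892 for Gm12250.
Igtp: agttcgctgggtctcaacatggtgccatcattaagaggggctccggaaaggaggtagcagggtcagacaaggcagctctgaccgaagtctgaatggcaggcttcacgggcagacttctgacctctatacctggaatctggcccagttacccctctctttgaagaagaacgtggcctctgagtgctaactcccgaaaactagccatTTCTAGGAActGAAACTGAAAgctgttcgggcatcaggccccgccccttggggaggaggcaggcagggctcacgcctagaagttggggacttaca
Irgm2: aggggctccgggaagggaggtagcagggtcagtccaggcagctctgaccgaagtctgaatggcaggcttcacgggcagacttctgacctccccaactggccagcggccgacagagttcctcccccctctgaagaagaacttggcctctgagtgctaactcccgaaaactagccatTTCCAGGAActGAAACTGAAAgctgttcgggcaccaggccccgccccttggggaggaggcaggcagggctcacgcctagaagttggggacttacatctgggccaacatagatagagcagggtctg
Gm12250: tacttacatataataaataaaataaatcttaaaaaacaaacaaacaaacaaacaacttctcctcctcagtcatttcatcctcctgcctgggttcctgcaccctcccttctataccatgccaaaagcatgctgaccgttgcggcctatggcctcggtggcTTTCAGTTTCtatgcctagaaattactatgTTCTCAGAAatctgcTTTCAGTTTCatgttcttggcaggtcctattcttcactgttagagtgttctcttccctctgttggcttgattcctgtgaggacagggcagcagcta
In Igtp the TTCNNNGAA match began 45 bases and the GAAANNGAAA match 34 bases before the start, and in Irgm2 they began 75 and 64 bases before it. Igtp and Irgm2 shared an unbroken run of 61 bases, whereas the longest run either shared with Gm12250 was 8 bases. Gm12250 held a TTCNNNGAA match 61 bases before its start and GAAANNGAAA matches on the minus strand 91 and 46 bases before it. Both motifs occurred in 149 of 32851 promoters in the RefSeq table (0.454%) and in 4 of the 143 promoters matched to 118 flanking genes, the other being that of F930015N05Rik. A match is a description of letters, not of binding.

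At day 6, 16 of 51 kept flanking genes reached 2-fold with the higher value in NLRP3KO and 26 with the lower, together 82.4%, against 74.6% of all 5336 entries kept (20.9% higher and 53.8% lower). Their median difference was -1.06, against -1.52 over all entries. Of the 51, 23 were listed at 0 in NLRP3KO and 9 in WT, and over all entries 2653 were listed at 0 in NLRP3KO and 505 in WT, in the stage where the NLRP3KO library held 4952 fragments on genes. The counts are thus mostly fixed by which library let a gene be kept. Among the 19 above 0 in both libraries the direction turned, with 7 higher and 3 lower in NLRP3KO (52.6%, against 37.8% of all entries). Their median was -0.04, against 0.33 over all entries. Relative to naive WT, a fragment was worth 35.2 times the FPKM in day 6 NLRP3KO and 8.13 times in day 6 WT. A gene above 0 in NLRP3KO thus had a high value there, so this filter favours higher values in NLRP3KO. With upper quartile scaling, 11 of the 51 were higher and 29 lower. No flanking gene was at least 2-fold apart while above 0 in both with bounds apart, where 0.75% of all entries were. Bounds stood apart for 3 genes, all listed at 0 in NLRP3KO, against 12.6% of all entries. Arf1 had 11.8 in WT, Grap, an adaptor of the Grb2 family in T cell receptor signalling, had 12.2 in WT, and BC046404 had 3.86 in WT. The FPKM that 3 fragments would have given in the NLRP3KO library was 20.95 for Arf1, 14.5 for Grap and 11.7 for BC046404, above each WT value, so a lower level in NLRP3KO was not detectable at this depth.

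Grap had 62.3 in naive NLRP3KO and 52.3 in naive WT, and 2.89 in NLRP3KO and 3.42 in WT at day 3, a ratio of 0.890 (0.764 to 1.04) in naive cells. Ubb had 37.9 in NLRP3KO and 61.2 in WT at day 6, a ratio of 0.550 (0.200 to 1.37). Larp1 had 2.38 in NLRP3KO and 7.42 in WT, a ratio of 0.285 (0.0317 to 1.09). Higher in NLRP3KO at day 6 were Map2k3, a kinase upstream of p38, with 7.64 in NLRP3KO and 0.878 in WT, and Tmem11, a protein of the inner mitochondrial membrane, with 7.17 in NLRP3KO and 1.64 in WT. Sap30l, of the Sin3 deacetylase complex, had 5.50 in NLRP3KO, against 0 in WT. Map2k3 and Sap30l rested on 2.15 and 0.884 estimated fragments in NLRP3KO. The scaled bounds of Map2k3, Tmem11 and Sap30l overlapped between the day 6 libraries. The entry Gm12238, of 124 bases, was listed at 430.5 in WT at day 6, outside its own bounds of 0 to 100.4, and at 0 in the other 5 libraries. Olfr330 and Olfr325 had 2.75 and 2.88 in NLRP3KO at day 6, with lower bounds of 0, and were listed at 0 elsewhere.

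By role, the counts are given for naive stage, day 3 and day 6 in that order, beside 2.53%, 52.6% and 74.6% of all kept entries at least 2-fold apart. They are small, and in the Th2 stages mostly set by values listed at 0. Of 12 genes of T cell receptor, cytokine and NF-kappaB signalling, 10, 6 and 6 were kept, with 0, 2 and 2 at least 2-fold higher in NLRP3KO and 0, 2 and 3 lower. Of 18 genes of transcription and chromatin, 16, 9 and 8 were kept, with 0, 2 and 3 higher and 0, 1 and 3 lower. Of 12 genes placed by symbol on a mitochondrial list, 9, 2 and 4 were kept, with 0, 1 and 1 higher and 1, 1 and 2 lower. That list includes Hint1, Gpx3, Shmt1, Aldh3a2 and Pemt, and where its gene products act in the cell was not checked. The gene lower in naive cells was Hint1, so the count does not show a mitochondrial change. Of 22 genes of trafficking, GTPase and nucleotide functions, 19, 14 and 12 were kept, with 0, 1 and 3 higher and 0, 3 and 6 lower. Of 37 receptors and channels typical of other tissues, 8 were above 0 anywhere and 1, 1 and 4 were kept, with 0, 0 and 4 higher and 0, 1 and 0 lower. Of the 3 immunity-related GTPases, 3, 3 and 2 were kept, with 0, 2 and 0 higher and 0, 1 and 2 lower. In the signalling group, Cdc42se2, an effector of Cdc42, had 42.2 in naive NLRP3KO and 31.1 in naive WT, a ratio of 1.01 (0.857 to 1.20). Tnfrsf13b, a receptor of B cells, had 2.26 in naive NLRP3KO and 3.43 in naive WT, beside the B cell marker sums of 33.0 in naive NLRP3KO and 74.2 in naive WT. At day 3 Tnfrsf13b was listed at 0 in NLRP3KO and had 2.74 in WT, where 1 of 4 B cell markers was above 0. The part of B cells in these values was not tested.

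Across stages, no flanking gene of the 33 kept at all 3 was at least 2-fold apart in the same direction each time, where 0.526% of all 3800 such entries were. The sign alone was the same at all stages for 9 of the 33 (27.3%), against 29.6% of those entries. Among the 17 above 0 in all 6 libraries, 4 had the same sign at every stage (23.5%), against 33.2% of 1796 entries. Signs at pairs of stages, which share no library, were compared after the values had been seen. Naive and day 3 differences had the same sign for 34 of 48 flanking genes (70.8%), against 50.5% of all entries, a share exceeded by 1 of 97 other windows and by none of the 8 others on chromosome 11. Of these 34, 16 were higher and 18 lower in NLRP3KO. Among the 31 genes above 0 in both day 3 libraries the sign was shared by 21, and among the 17 listed at 0 in 1 of them by 13. Naive and day 6 differences had the same sign for 18 of 42 genes (42.9%), against 52.1% of all entries, and this share was exceeded by 74 of 84 other windows. Day 3 and day 6 differences had the same sign for 15 of 35 genes (42.9%), against 56.6% of all entries. Differences of at least 2-fold in the same direction were found for 1 of 48 genes (2.08%) at naive stage and day 3, 0 of 42 at naive stage and day 6, and 7 of 35 at days 3 and 6, against 0.796%, 1.93% and 23.3% of all entries. Flanking genes with transcripts under 1000 bases had median differences of -0.54 in naive cells (5 genes) and -2.04 at day 3 (3 genes), whereas all entries of that length had -0.48 and 0.14. The part of transcript length in the shared signs was not tested.

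**Figure D5:**
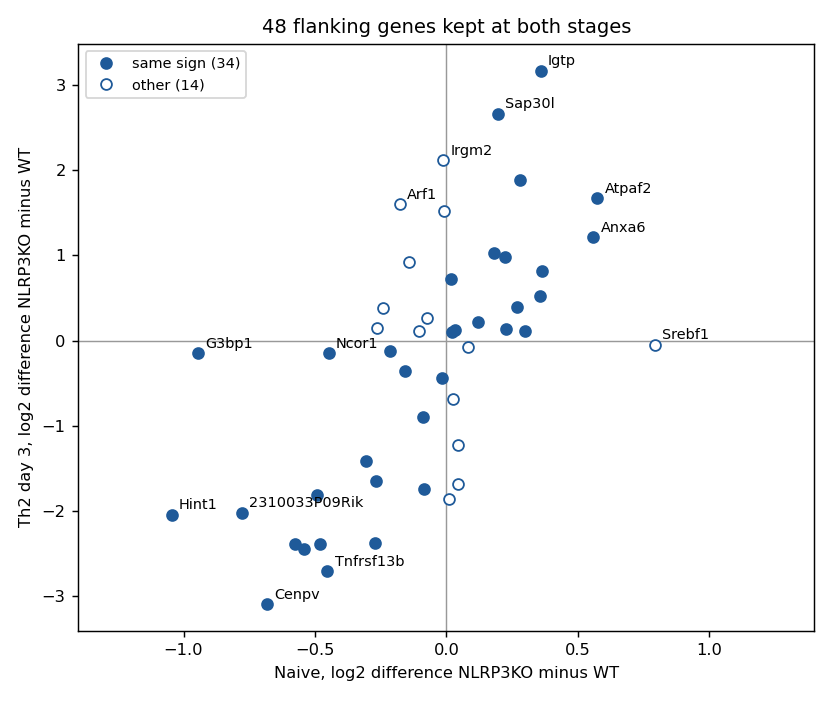
Log2 difference at day 3 against that in naive cells, NLRP3KO minus WT in both, for the 48 flanking genes kept at both stages. The sign is the same for 34 (filled) and not for 14 (open). Hint1 and Cenpv lie low on both axes and Igtp, Anxa6 and Atpaf2 high on both. At day 3 Cenpv was listed at 0 in NLRP3KO and Igtp at 0 in WT.

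A fit with limma over all 6 libraries, with stage as a block, asked whether the genotype difference of each gene exceeded its spread between stages. Stages are not biological replicates, so its p-values measure only that spread. Of the 93 flanking genes tested, 0 had an adjusted p under 0.05 (Benjamini-Hochberg over all 10542 entries), and neither did any other entry (0%). The lowest adjusted p was 0.75. With 2 residual degrees of freedom, a lack of calls does not show that levels were equal. At an unadjusted p under 0.05 there were 4 flanking genes (4.30%), all lower in NLRP3KO, against 138 entries in all (1.31%), of which 131 were lower. The 4 were 2310033P09Rik (log2 difference -1.59, SE 0.50), Hint1 (-1.30, SE 0.42), 2810001G20Rik (-2.08, SE 0.70) and Adora2b, an adenosine receptor (-1.08, SE 0.38), each with an adjusted p of 0.75 by limma. All 4 had the lower value in NLRP3KO at all 3 stages, but the fit favours genes whose differences share a sign. A value listed at 0 in a Th2 library of low depth, as for 2810001G20Rik, does not by itself show a lower level. 2810001G20Rik had 20.1 in naive NLRP3KO and 23.2 in naive WT, 0 in NLRP3KO and 2.19 in WT at day 3, and 0 in NLRP3KO and 4.68 in WT at day 6. Adora2b did not pass 1.1 FPKM in any library.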

How the data were processed

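Each library's deposited table gives an FPKM and its confidence bounds per entry, per the file headers. TopHat, Cufflinks and mm9 are named in the submitters' processing notes, with no versions or annotation named in the sources used here. Of 23700 entries, 285 with a low data status were left out. Starts in the tables count from 0 and are given here from 1.

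FPKM were divided by each library's median ratio to the 6-library geometric mean, taken over 1059 entries with FPKM of at least 1 in all 6 libraries. Kept entries had an FPKM of at least 1 in 1 of the 2 libraries, and differences are on the log2(scaled FPKM + 1) scale, so changes of low genes are understated. Fragments were estimated from the bounds, whose ratios are often whole numbers up to 80 (relative tolerance 2e-05), and are inferences. Their intervals and floors cover counting error only, since PCR reads without molecular identifiers are not independent molecules. Windows did not overlap. The stage fit used limma 3.58.1 in R 4.3.3 and was tested on simulated data, and Python 3.11.15 with pandas 2.3.3 and scipy 1.17.1 did the rest. Transcript lengths and promoters came from GRCm38 tables matched by symbol, with lengths for 77 of the 83 genes kept in naive cells. A value of 0 can be a failed estimate and is called listed at 0.

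Genes were named by rule: all detected within 0.5 Mb of Nlrp3, the 6 highest and 6 lowest differences per stage with FPKM of at least 5, those at least 2-fold apart with bounds apart, the 8 most abundant, and up to 3 per role list, apart from 1 gene that is not reported here. Genes with bounds apart at any fold or against 0, those with an unadjusted p under 0.05, Tnfrsf13b and the promoters were added after values were seen. The flanking genes, role lists and tests were chosen with earlier results of these data known.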

Additional observations from a re-analysis of the deposited data

Results flagged for a closer look

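For 2 flanking genes the deposited values moved one way at day 3 and the opposite way at day 6 between the genotypes, with 1 library per group, and this difference between days was not tested. Igtp, an immunity-related GTPase, had a log2 difference, NLRP3KO minus WT, of 3.16 at day 3 and -2.63 at day 6, resting on 4.31 estimated fragments in NLRP3KO at day 3 and 3.22 in WT at day 6, with 0 in the other library each time. Arf1, a vesicle GTPase, had 1.60 at day 3 and -4.49 at day 6, where NLRP3KO was listed at 0 and WT had 7.32 estimated fragments. A log2 difference against a library listed at 0 depends on the pseudocount. In the day 6 NLRP3KO library 3 fragments would have given 11.4 FPKM for Igtp and 20.95 for Arf1, above the WT values of 2.83 and 11.8, and the intervals of the day 6 ratios reach up to 9.31 and 2.67, so a reversal cannot be read from these values. In naive cells their log2 differences were 0.36 and -0.18. The NLRP3KO library of day 6 held 4952 estimated fragments on genes, against 28022 in WT, and the part of its depth in these values was not tested.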

How the results depend on the processing

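The share of flanking genes at least 2-fold apart in naive cells, 1.20%, moved with most choices. It was 7.23% as deposited without scaling (6.70% of all entries), 9.64% with a pseudocount of 0.1 (8.02%) and 6.56% as ratios of genes with at least 20 fragments (3.15%). It was 10.8% at 1.5-fold (9.47%), and 0% with a pseudocount of 5 (1.10%), at 4-fold (0.451%), within 1 or 2.5 Mb of Nlrp3 (2.53%), or without entries outside their own bounds (1.47%). Leaving out the scaling moved the naive median to 0.38, against 0.37 over all entries, and Rapgef6 then turned to higher in NLRP3KO. The day 3 share fell to 15.7% with a pseudocount of 5, 22.6% among genes above 0 in both and 25.5% at 4-fold, against 14.9%, 27.8% and 22.6% of all entries. The day 6 share fell to 39.2%, 52.6% and 47.1% under the same choices, against 28.5%, 37.8% and 41.1%. The share with one sign at naive and day 3 ran from 60.2% (within 10 Mb) to 79.2% (as deposited), against 49.8% to 52.5% of all entries. limma called 0 flanking genes under its 9 alternatives too, with 0 to 4 at an unadjusted p under 0.05. The limma fit pairs NLRP3KO with WT by stage, and without that block it also called 0. Beyond that, no paired analysis was possible because the labels carry no replicate numbers, and with 1 library per group no replicate could be left out. Depth limits the Th2 stages: 9 flanking genes at day 3 and 1 at day 6 had at least 5 fragments in both libraries. The scaling by fragments on genes, the bounds filter, the ratio of deep genes and all alternatives for shared signs were chosen after seeing the data.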
